A study of Mus musculus with 20 samples.

Results

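This account describes the m6A peaks that were called in CD4 and CD8 double-positive (DP) thymocytes and have no iNKT peak at the same exonic bases. The peaks were chosen by comparing the authors' deposited table of DP peaks with that of invariant natural killer T (iNKT) cells. A DP peak was taken when its exonic blocks shared no base with an iNKT block on the same strand, and rows repeated at the same coordinates were kept 1 time. The rule chose 8552 of 13450 DP peaks (63.6%), and the other 4898 (36.4%) overlapped 1 or more of the 12542 iNKT peaks. The 8552 peaks lie in 4939 named genes, and 15 of them carry no gene name. Of these genes, 2205 have no row at all in the iNKT table. They hold 3577 of the peaks and are given separately below, beside the 4960 peaks in 2734 genes that have iNKT rows elsewhere.

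N6-methyladenosine (m6A) is an internal mark of messenger RNA, set on adenosine in a GAC context by a complex of METTL3 and METTL14 with WTAP, VIRMA, ZC3H13, RBM15 and CBLL1. Reader proteins of the YTH family bind the mark and act on splicing, translation and decay of the RNA, and FTO and ALKBH5 can remove it. DP thymocytes have passed beta selection, rearrange the T cell receptor alpha chain with RAG1 and RAG2, and undergo positive and negative selection. The iNKT lineage branches off from DP thymocytes after selection by lipids on CD1d, and matures through ZBTB16, TBX21 and GATA3.

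Cells were sorted from the thymus of C57BL/6 mice, 6 to 8 weeks old, that were wild type (WT) or carried the genotype Mettl3fl/flCD4-cre. In the latter, Cd4 regulatory elements drive the Cre recombinase that removes floxed Mettl3. This Cre is active by the DP stage, from which iNKT cells descend. DP cells were gated as 7AAD-CD1d-Tet-CD4+CD8+ and iNKT cells as 7AAD-CD1d-Tet+TCRbeta+. The series holds 20 libraries: input and m6A immunoprecipitate of 2 DP replicates (numbered 2 and 3) and of 3 iNKT replicates per genotype. Whether replicates came from separate mice is not stated. The tables hold no value per replicate and no counts, so no spread between replicates and no depth can be given, and every enrichment, p and FDR below is the authors' own value. The labels name m6A-seq and the low-input m6A-LACE-seq without saying which cells had which, so cell type, protocol and number of replicates cannot be told apart. A peak needs transcript as well as mark. Transcript levels of either cell type were not measured here, and their part in the absence of an iNKT peak was not tested.

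Of 12 DP genes taken as markers, 8 have a DP peak (Cd4, Cd8a, Cd8b1, Rag1, Satb1, Bcl11b, Themis and Cd24a), whereas Rag2, Ptcra and Dntt are among those with none. The DP markers are not confined to DP peaks: 5 also have an iNKT row (Cd8a, Cd8b1, Rag1, Satb1 and Bcl11b). Of 10 iNKT markers, 3 have a DP peak and 9 have an iNKT row, Zbtb16 and Tbx21 among the latter. No epithelial marker and no erythroid marker has a peak in either table, whereas Cd79b of B cells has a peak in both. Among markers of other cells, Csf1r and Itgam of myeloid cells and Pecam1 of endothelium hold peaks of the set, although the Csf1r peak lies outside the RefSeq gene of that name.

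No genome sequence was used here, so the sequence under most peaks cannot be shown. RefSeq windows around gene starts (GRCm38.p6, 250 bases before to 50 after the start) cover at least 30 unbroken bases of 102 of the peaks. The letters GGACT, a common form of the m6A consensus, occur on the transcript strand in 10 of these 102 stretches (9.80%) and on the opposite strand in 6 (5.88%). In 95 such stretches of DP peaks that overlap an iNKT peak, they occur in 17 (17.9%) and, on the opposite strand, in 7 (7.37%). The stretches had medians of 59 and 60 bases. The 50 transcribed bases of all 32851 windows hold GGACT in 5.76% of cases, and in 4.87% on the opposite strand. Among windows whose 50 transcribed bases lie wholly within a peak, 2 of 47 in the set and 12 of 63 in overlapping peaks hold it. GGACT was the only motif searched, and a match is a description of letters, not of a methylated base. The 8 stretches with the smallest peak p are shown as 30 bases each, with GGACT in capitals, to let the context be read.
Dnajb1, chr8:83608328-83608357, plus strand: ggccatgggcaaGGACTactatcagacgct
Ift57, chr16:49736765-49736794, plus strand: ctgaaagtcacgattaGGACTgacaataag
Ccdc92, chr5:124862210-124862239, minus strand: cctcctgtgcgaGGACTagtcgggtagcca
Zc3h14, chr12:98771028-98771057, plus strand: gataagtaggtaGGACTtacaggacacaag
Fancl, chr11:26387030-26387059, plus strand: caggcctgtGGACTtgtgagtgatcttcct
Chml, chr1:175688477-175688506, minus strand: gttaaaagcttaGGACTtaaaaactcagtg
Dcun1d1, chr3:35930139-35930168, minus strand: atcgtgtttgcaGGACTgatagataacacc
Ankrd23, chr1:36535690-36535719, minus strand: aaggggggaccatGGACTtcatcagcattg

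The shown stretches belong to peaks of unequal strength. The peak of Dnajb1, which encodes an HSP40 co-chaperone, has a fold enrichment of 3.35 over input and a -log10 peak p of 18.5 in the authors' deposited table. In that table the peak of Dcun1d1, a neddylation factor, has the highest enrichment of the 8 at 22, with a -log10 p of 6.57, and that of Ankrd23 the lowest at 1.7. Ift57, Zc3h14 and Chml have no iNKT row, and the other 5 genes have. The Ift57 stretch was read from the RefSeq window of Gm52251, a gene model that starts within the span of that peak. Counted from the start of the window's gene, the stretches of Dnajb1, Fancl, Chml and Dcun1d1 begin at -219, -53, -152 and -93. That of Ift57 begins at -35. These stretches lie wholly before that RefSeq start, whereas the share over all windows was of transcribed bases. None of the 8 peaks passed the differential test between genotypes, and their log2 fold changes ran from -0.69 for Dcun1d1 to 1.03 for Ccdc92.

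The 3' UTR peak of Hmgb1 (chr5:149048675-149049332), a nuclear DNA-bending protein, has the smallest p, with a -log10 p of 1690 and an enrichment of 8.48 in the authors' deposited table, and Hmgb1 has no iNKT row. Next, with a -log10 p of 577 and no iNKT row either, comes a peak of 2511 bases named after Klhdc4 that lies on the plus strand of chromosome 8 in the RefSeq gene Gm42048, not in Klhdc4. The 3' UTR peak of Gbp8, an interferon-inducible GTPase, follows with an enrichment of 5.3 and a -log10 p of 499. Among genes with iNKT rows, the authors' deposited table gives Sfpq, a paraspeckle splicing factor, a -log10 p of 446, and Sltm, an RNA-binding protein, 359. Ptma, the gene of prothymosin alpha, reached 347 in a peak only 88 bases from an iNKT block, and Pnn, a splicing-associated protein, 331. A peak named after Mir5107 (358) lies in Tcof1, and one named after Foxp1 (327) lies in Eif4e3. These values chose the peaks and are given as description.

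Most peaks of the set are weaker and shorter than the DP peaks that overlap an iNKT peak. Median fold enrichment was 4.14 (quartiles 2.59 and 8.7) in the set and 5.53 (3.42 and 9.95) in overlapping peaks in the authors' deposited table. The median -log10 p was 5.55 against 11.5, and the median exonic length 211 against 360 nt. With all DP peaks cut into 5 bins of near equal number by -log10 p, 80.6% of the lowest bin and 38.7% of the highest had no iNKT peak. By length the share fell from 80.5% to 36.3%, and by enrichment from 78.2% to 58.7%, with 56.2% in bin 4. A longer peak has more bases that can meet an iNKT block. Only the share with no iNKT peak and the genotype changes were split by these bins. The part of length and strength in the other differences was not tested. The largest peak FDR is 0.048 in the DP table and 0.038 in the iNKT table.

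**Figure D1:**
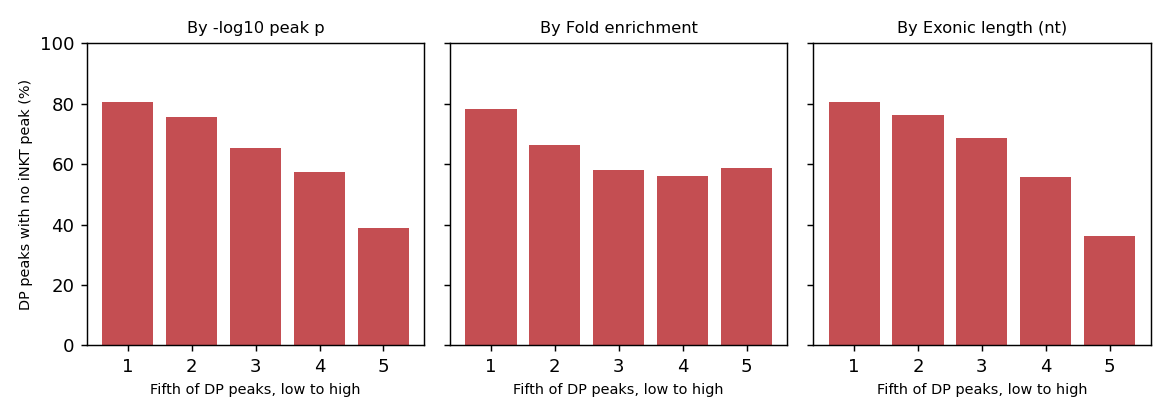
Share of DP peaks with no iNKT peak (y axis, percent, from 0) in 5 bins of all DP peaks from low to high (x axis), by -log10 peak p, fold enrichment and exonic length in nt. The share falls from 80.6% to 38.7% over -log10 p and from 80.5% to 36.3% over length, and less steeply over enrichment.

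At the edge of the rule, a mitochondrial peak at chrM:1094-1870 over mt-Rnr2 touches an iNKT block with no shared base. A Ccnt1 peak lies 6 bases from the nearest iNKT block, and a Scamp4 peak 12 bases from it. Just outside, the DP peaks of Clint1 and Vav2, and a DP peak named after Polr2e that lies in Arhgap45, share 1 base each with an iNKT peak. Within 150 bases, about the RNA fragment length in the labels, lie 495 of the 8552 peaks (5.79%), while 4908 lie 10000 bases or more away. The median distance to an iNKT block on the same strand was 18560.5 bases. It was 3069.5 bases in genes with iNKT rows and 114133 bases in genes without. Rows are not wholly separate: 289 of the 8552 peaks share a base with another DP row on the same strand, and 439 with a DP row on the other strand, as for Sox4.

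**Figure D2:**
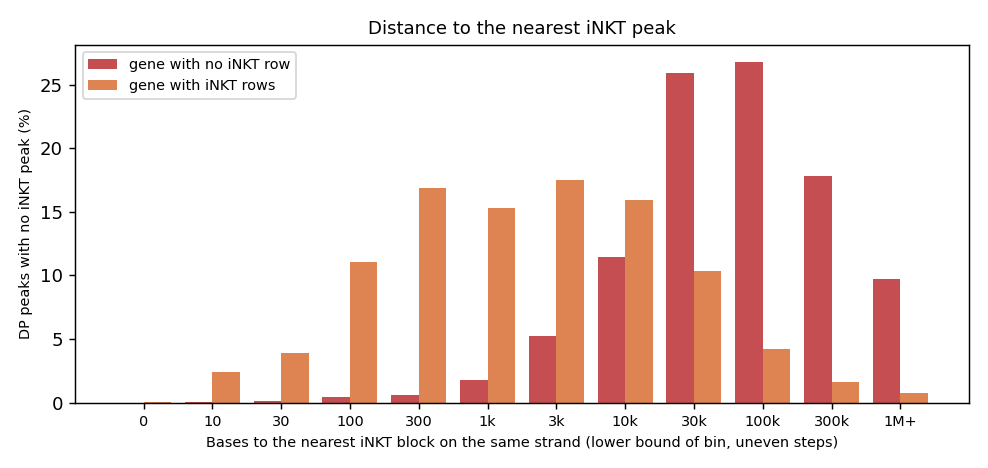
Distance from each DP peak of the set to the nearest iNKT block on the same strand (x axis, bases, uneven bins named by their lower bound) as a share of peaks (y axis, percent), for genes with no iNKT row and genes with iNKT rows. The medians are 114133 and 3069.5 bases, and the distributions overlap over most bins.

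The set leans to exons outside UTRs. In the authors' annotation 50.4% of its peaks are exonic outside UTRs, against 38.0% of overlapping peaks. The 3' UTR holds 41.3% against 52.8%, and the 5' UTR 688 of 8552 against 441 of 4898. Put the other way, 69.8% of exonic, 57.7% of 3' UTR and 60.9% of 5' UTR DP peaks had no iNKT peak. Peaks that span a splice junction made up 31.1% of the set and 25.4% of overlapping peaks. Gene names are less certain than positions: 6808 peaks (79.6%) lie in the RefSeq gene they are named after. In these, 52.7% were exonic and 37.9% in the 3' UTR, against 40.4% and 48.4% of overlapping peaks so placed.

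Among genes with a DP peak, 2205 of 6618 (33.3%) have no iNKT row, 1074 have iNKT rows at other bases only, 1660 hold both kinds of DP peak, and in 1679 every DP peak overlaps. Of the 2205 genes, 1374 hold 1 peak, 519 hold 2 and 51 hold 5 or more. RefSeq placement narrows this group. Of its 3577 peaks, 2420 (67.7%) lie in a RefSeq gene on the same strand with no iNKT peak under any name, 381 in a RefSeq gene that holds an iNKT peak under another name, and 776 in no RefSeq gene that the table places on that strand. Peaks in these genes had a median enrichment of 4.75, and those in genes with iNKT rows 3.83, in the authors' deposited table.

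The highest enrichments in genes with no iNKT row lie mostly in 3' UTRs. In the authors' deposited table the 3' UTR peak of Rnf103, an endoplasmic reticulum ubiquitin ligase, has an enrichment of 71.1, and that of Ccdc34, a coiled-coil protein, 58.8. Zfp260, a zinc finger protein, follows with 54.3 in a peak of 1320 nt annotated to the 5' UTR, and Apc, the scaffold that marks beta-catenin for decay, with 53. The Apc peak lies 1587 bases from an iNKT block on the same strand that is not named after Apc. Lysmd3, Dnase1, Bpnt2 and Cd2ap lie between 45.2 and 49.3. The peak named after Mir7682, at 47.7, lies in Trmt1l.

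Several genes with many peaks in the set encode long cytoskeletal or centrosomal proteins. Macf1, a spectraplakin that links actin and microtubules, holds 18 of its 22 DP peaks in the set, and Akap9, a centrosomal anchor of protein kinase A, 11 of 12. Myo18a, Cntrl, Gimap5, Slamf6, Aspm, Cep295 and Kif7 hold 9 each. With no iNKT row, Zfp729b holds 10 peaks, with enrichments from 4.56 to 30.3 in the authors' deposited table. Cplane1, Phip, Cenpf, 1700028K03Rik, Zmym1 and Kif3c hold 8 each, and Kcna2, Tasor2 and Tspyl4 hold 7. Names need care here too: of the 9 peaks named after Slamf6, 7 lie outside that RefSeq gene, and 1 of the 9 named after Aspm lies in Zbtb41.

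Gene groups differed widely in how many of their DP peaks had no iNKT peak, against 63.6% over all DP peaks. The share was highest for kinesins, with 54 of 63 peaks (85.7%), and for cell cycle and replication genes, with 63 of 78 (80.8%). It was lowest for genes induced by antigen receptor signals, with 4 of 30 (13.3%). Zinc finger genes of the Zfp series had 460 of 622 (74.0%), DP stage genes 56 of 82 (68.3%), ribosomal protein genes 32 of 48 (66.7%), and DNA repair genes 56 of 86 (65.1%). T cell receptor signalling genes had 34 of 67 (50.7%), and chromatin regulators 125 of 262 (47.7%). These shares were given by the peak calls that chose the set, and no list was tested.

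**Figure D3:**
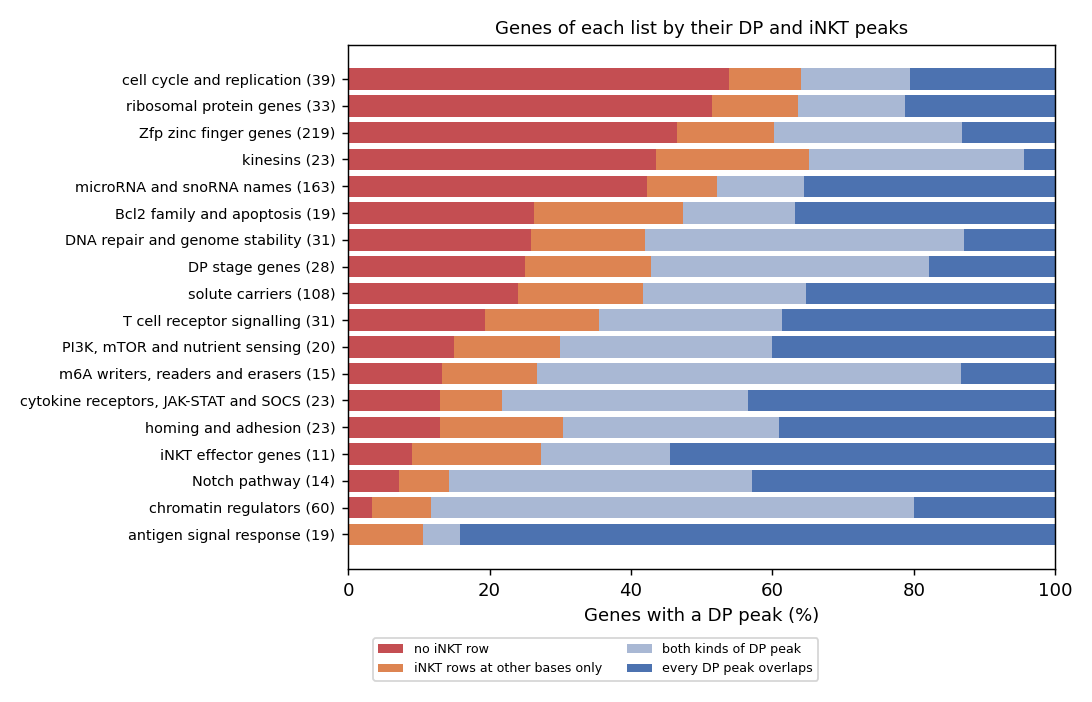
Genes of each list that have a DP peak (their number in parentheses), split by the state of their peaks, as a share of those genes (x axis, percent). Cell cycle genes stand at the top, with 21 of 39 genes lacking any iNKT row, and genes of the antigen signal response at the bottom, with 0 of 19.

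DP stage genes fell into several patterns. Rag1, the recombinase subunit, has 4 DP peaks and 1 iNKT peak. The DP peak of 2064 nt in its coding exon (enrichment 7.09) overlaps the iNKT peak of 300 nt (enrichment 6.4). A second stretch of the same exon, chr2:101643992-101644411, has an enrichment of 2.74 and a -log10 p of 344 in the authors' deposited table and no iNKT peak, and 1553 bases separate it from the iNKT block. Bcl11b, a zinc finger factor of T cell commitment, holds 3 peaks of the set in its 3' UTR, at enrichments of 7.52, 2.06 and 1.92 in the authors' deposited table. Its overlapping DP peak of 2096 nt spans 3 iNKT peaks, and the weakest of its peaks in the set lies 29 bases from an iNKT block.

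**Figure D4:**
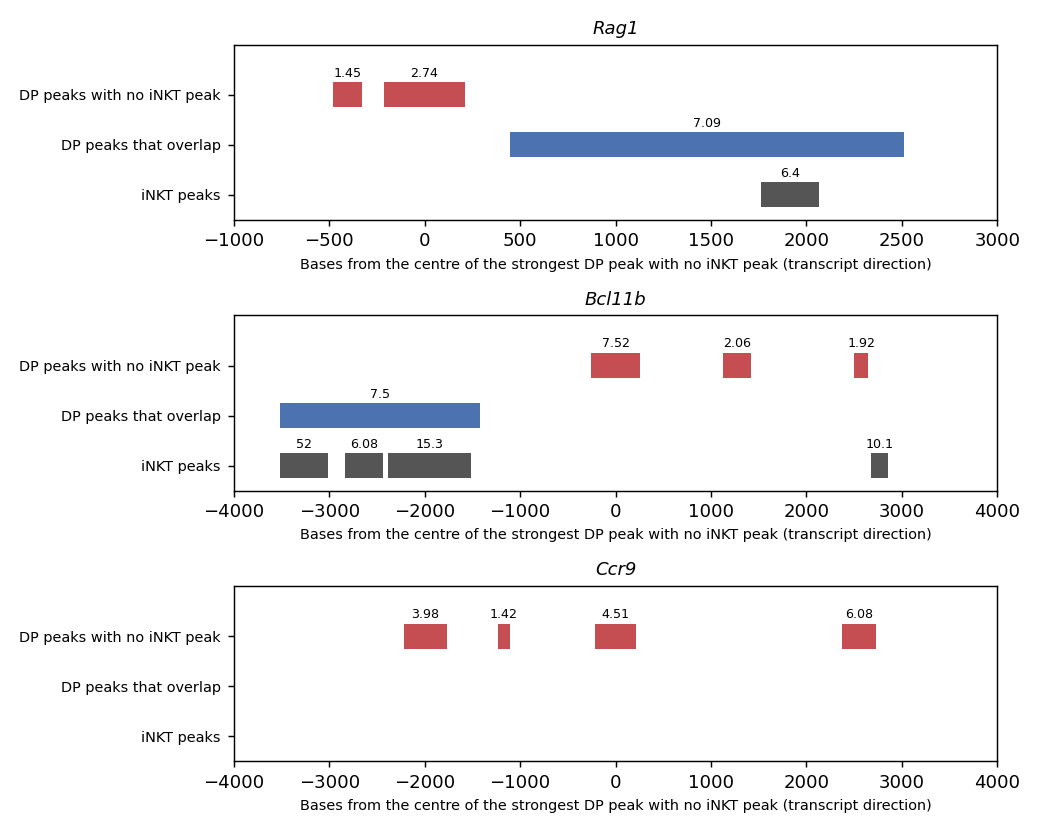
Peaks of Rag1, Bcl11b and Ccr9 on their own strand, as bars by distance in bases from the centre of the strongest DP peak with no iNKT peak, in transcript direction. The number above each bar is the fold enrichment in the authors' deposited tables; Rag1 and Bcl11b have DP peaks of both kinds, and Ccr9 has no iNKT peak.

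Ccr9, the receptor for the thymic chemokine CCL25, has 5 DP peaks and no iNKT row. Its 3' UTR peak (chr9:123781390-123781810) has an enrichment of 4.51 and a -log10 p of 158 in the authors' deposited table, and its coding exon peak an enrichment of 3.98. A peak at 6.08 that is named after Ccr9 lies beyond the RefSeq gene. Themis, a T cell receptor signalling adaptor needed for positive selection, holds 4 peaks, the strongest at an enrichment of 5.89 over 990 nt. Cd24a, a surface protein that is lost on maturation, holds a 3' UTR peak at 6.87 with a -log10 p of 136. Bcl6 and Tespa1 also have no iNKT row, nor has Tcf3, the E2A gene. In all, 7 of the 28 DP stage genes with a DP peak (25%) have no iNKT row, below the 33.3% of all genes. Cd4 itself holds 1 short peak of 60 nt at an enrichment of 2.11. For Cd8a, 4 of the 5 peaks in the set lie on the opposite strand outside the gene, and 1 lies in its 3' UTR at 1.75.

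Of the 39 cell cycle genes with a DP peak, 21 (53.8%, against 33.3% of all genes) have no iNKT row. Smc4, a condensin ATPase, has peaks at enrichments of 7.31 and 4.38 in the authors' deposited table, with -log10 p of 197 and 194. A further peak of 869 nt in the RefSeq gene Smc4 is named after Mir15b, a microRNA hosted there. Top2a, the topoisomerase of mitotic chromosomes, has a peak of 720 nt at 4.09 (-log10 p of 193). Cenpf, a kinetochore protein, holds 8 peaks at enrichments from 2.12 to 38.1, the highest in a peak of 4046 nt annotated to exon 12 of 18. Cenpe, the kinetochore kinesin, holds 5 peaks, of which 1 covers 4160 nt in 20 blocks at 9.53. Bub1b, Plk4, Kif11, Kif23, Aurka, Aurkb, Foxm1, Pcna, Mcm2 and Mcm7 likewise have no iNKT row. Mki67, the proliferation antigen, has a peak of 8354 nt at 12 that lies 2412 bases from the nearest iNKT block. In 8 genes, among them E2f1, E2f2, Cdt1 and Rrm1, every DP peak overlaps an iNKT peak. The peak tables do not show how many cells of either sort were cycling, and fewer cycling cells and less transcript per cell cannot be told apart in such sorted pools.

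DNA repair genes included several that act on recombination breaks. No iNKT row was found for 8 of the 31 with a DP peak (25.8%, against 33.3% of all genes). Lig4, the ligase of end joining, has a peak of 2183 nt at an enrichment of 7.95 (-log10 p of 77.4 in the authors' deposited table) and no iNKT row. Rev3l, the catalytic subunit of translesion polymerase zeta, holds 7 peaks from 3.27 to 12.4, and Brca1 holds 4 from 3.67 to 18.6. Polq also holds 4, from 4.39 to 19.5. In Rad50 a peak of 1166 nt in 9 blocks has an enrichment of 12.6, and the 1 iNKT row of that gene overlaps another of its 4 DP peaks.

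Genes of T cell receptor signalling were split. Vav1, a guanine nucleotide exchange factor, has no iNKT row and a 3' UTR peak at an enrichment of 10.9 with a -log10 p of 112 in the authors' deposited table. Ptpn22, a phosphatase that restrains the receptor, reached 6.83, and Nfatc3, a calcineurin-dependent factor, 4.37. Fyn and Ptpn2 also have no iNKT row, and 6 of the 31 listed genes with a DP peak lack one (19.4%, against 33.3% of all genes). For Zap70, Cd3d, Cd3e, Cd5, Nfatc1 and Nfatc2, every DP peak overlaps an iNKT peak. Cd247, the zeta chain, holds a junction-spanning peak of 301 nt at 2.75 (-log10 p of 171) in the set. A peak named after Cd247 at 8.5 lies on the minus strand, that of Pou2f1, opposite another at 8.08, so reads there cannot be ascribed to 1 gene.

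The genes of the antigen signal response, which are switched on within minutes to hours of receptor engagement, hold 3 exceptions. Fos, Jun, Junb, Egr1, Egr2, Nr4a1, Dusp1 and 8 others of the 19 have no peak in the set, nor has Cd69. Egr3 holds 2 peaks at 16.2 and 18.2 in the authors' deposited table that share most of their bases and count as separate rows. Bcl2l11 and Myc hold 1 each, with -log10 p of 3.55 and 3.02.

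Of 15 genes of the m6A machinery with a DP peak, 13 hold peaks of the set, beside 74.6% of all genes with a DP peak, and 2 have no iNKT row (13.3%, beside 33.3%). Of their 43 DP peaks, 18 (41.9%) are in the set, below the 63.6% of all DP peaks. The reader Ythdf3 has a peak of 1648 nt at an enrichment of 15.7, and the writer subunit Mettl14 a junction-spanning peak of 180 nt at 1.95 in the authors' deposited table. Rbm15b, which guides the writer, holds 1 peak of the set among 7 DP peaks, at 5.6. Mettl3 has no peak in either table, so its deletion could not be checked here.

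Survival and homing genes were mixed. Mdm4, an inhibitor of p53, has no iNKT row and a peak of 810 nt at 10.6 (-log10 p of 156 in the authors' deposited table). Fas, the death receptor, has 1 at 4.42, and Bmf, a BH3-only protein, holds 3. Mcl1, a survival protein of the Bcl2 family, holds a peak of 1080 nt at 5.01 that lies 1707 bases from an iNKT block. Every DP peak of Bcl2, Bcl2l1, Bid and Bbc3 overlaps. Of the homing genes, Klf2, Ccr7 and Cxcr4 have only DP peaks that overlap. Homing genes have 25 of 46 DP peaks in the set (54.3%) and apoptosis genes 21 of 37 (56.8%), beside 63.6% of all DP peaks. No iNKT row was found for 3 of 23 homing and 5 of 19 apoptosis genes with a DP peak, beside 33.3% of all genes. Of 11 iNKT effector genes with a DP peak, 5 hold peaks of the set, beside 74.6% of all genes. Of their 23 DP peaks, 15 (65.2%) are in the set, near the 63.6% of all DP peaks, and 9 of the 15 are named after Slamf6. The 5 genes include Gata3, whose 3' UTR peak at 5.71 lies 149 bases from an iNKT block.

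Of the 4960 peaks in genes with iNKT rows, 4511 have an iNKT peak of the same name on the same strand, at a median distance of 2362 bases (quartiles 478 and 12317.5), and 1664 of them lie under 1000 bases away. The nearest iNKT peak was on the 3' side for 2390 and on the 5' side for 2121. It was on the 3' side for 74.6% of 5' UTR, 57.2% of exonic and 43.7% of 3' UTR peaks. A 5' UTR peak has most of its transcript on the 3' side.

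The comparison of Mettl3-deleted with WT cells was not used to choose the set. No header says which genotype the deposited log2 fold change is relative to. Values below 0 are read here as likely less m6A after deletion of Mettl3, because the deposited DP gene list holds 4336 of the 4337 genes with a negative peak and the deletion removes the writer. At the authors' differential FDR of 0.05, 63 of the 8552 peaks (0.737%) were lower, near the 0.743% of all DP peaks, and 9 (0.105%) were higher, against 0.483% of all DP peaks. Of the 4898 overlapping peaks, 37 (0.755%) were lower and 56 (1.14%) higher. Median changes, on the log2 scale of the authors' deposited table, were -0.06 in the set, 0.08 in overlapping peaks and 0 over all DP peaks, and 53.7%, 42.8% and 49.7% of values were negative. The medians differed in sign in each of the 5 bins of peak p, from -0.11 against 0.11 in the lowest to -0.05 against 0.05 in the highest. In that highest bin, 38 of the set's 1037 peaks (3.66%) were lower and 4 (0.386%) higher, against 33 (2.01%) and 41 (2.50%) of 1642 overlapping peaks, and 2.65% and 1.68% of all 2679 peaks in the bin. By fold enrichment this did not hold throughout: in bin 4 the set's median was 0 against 0.10, and over peaks with an enrichment of at least 4 it was 0 against 0.10. The quartiles of the set were -0.47 and 0.39, and no test was made of the difference, since peaks are not replicates.

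**Figure D5:**
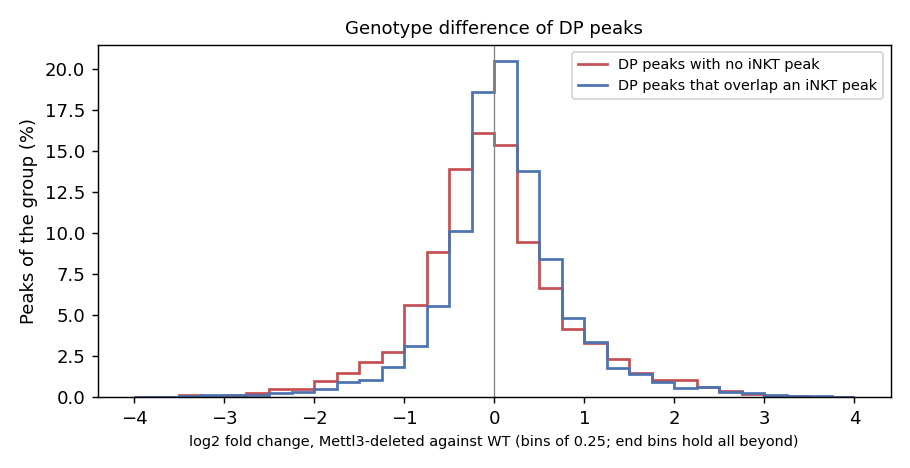
Log2 fold change of m6A in Mettl3-deleted against WT DP cells (x axis, bins of 0.25, the end bins holding all values beyond) as a share of each group of DP peaks (y axis, percent). Both distributions centre near 0, with medians of -0.06 in peaks with no iNKT peak and 0.08 in peaks that overlap one.

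The 63 lower peaks are mostly spliced and modestly enriched. Of them, 50 (79.4%) span a junction, against 31.1% of the set. The lower peaks among those that overlap an iNKT peak do so in 32 of 37 cases (86.5%), against 25.4% of all overlapping peaks. The 63 lower peaks of the set had a median enrichment of 2.19 and a median length of 360 nt, and 9 changed at least 2-fold. In the authors' deposited table their changes had a median of -0.59. The largest fall was in exon 2 of 23 of Atad5, which unloads PCNA from DNA, at -4.17 (FDR 0.03), from an enrichment of 8.84. Next came a peak named after Trim37 that lies in Ska2, at -2.57 (FDR 0.043), and exon 3 of 3 of Fignl1, a recombination ATPase, at -2.36 (FDR 0.045). A peak named after Gm6377 that lies in Sh3bgrl followed at -1.32 (FDR 0.028), and Tlk2, a chromatin assembly kinase, at -1.26 (FDR 0.032).

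Most of the smallest FDRs belonged to changes of small size. In the authors' deposited table Rpl19, a ribosomal protein of the large subunit, changed by -0.32 (FDR 4.4e-08) in a 3' UTR peak with an enrichment of 1.47, and Tpt1, the translationally controlled tumour protein, by -0.31 (FDR 0.00023). Arhgap45, a GTPase-activating protein, changed by -0.27 (FDR 1.2e-05), and Cdc37, a kinase co-chaperone, by -0.37 (FDR 0.00027). A peak named after Ppard lies in Def6 and changed by -0.29 (FDR 5.5e-07), and one named after Eif2s2 lies in Raly and changed by -0.40 (FDR 0.00027). Caprin1, an RNA-granule protein with no iNKT row, changed by -0.54 (FDR 0.00045).

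Some other lower peaks, chosen for mention after their values were seen, lie in genes of RNA processing and chromatin. Others, such as those of Map4, Itpr2 and Iqgap1, lie in genes of other kinds. For the list of chromatin regulators, 1 of 125 peaks of the set was lower, beside 0.737% of the set. Hnrnpu has 2 lower peaks, at -0.43 (FDR 0.0025) and -0.38 (FDR 0.0042) in the authors' deposited table, and Nono, Sf3b2, Sf1, Son, Prpf4b, Ddx23 and Hnrnpf 1 each. A further one named after Pacs1 lies in Sf3b2. Hmgn1, a nucleosome-binding protein with no iNKT row, has 2, at -0.56 (FDR 0.0022) and -0.86 (FDR 0.034). Hmga1, Mcm2, Rad21, Crebbp and Baz1b have 1 each. On the lists of DP stage and cytokine receptor genes, Myb changed by -0.27 (FDR 0.03) and Il2rg, the common gamma chain, by -0.59 (FDR 0.047). In genes with no iNKT row, 20 of 3577 peaks (0.559%) were lower and 3 (0.0839%) higher. In genes with iNKT rows, 43 of 4960 (0.867%) were lower and 5 (0.101%) higher, beside 0.743% and 0.483% of all DP peaks.

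The 9 higher peaks had a median change of 1.04, and 5 changed at least 2-fold. In the authors' deposited table a peak named after Prss50 that lies in Tmie changed by 2.33 (FDR 0.019), and one named after Gm10377, with only the pseudogene Cdv3-ps beneath it in RefSeq, by 2.13 (FDR 1.9e-05). A peak named after Stard4, annotated as intergenic and lying over Camk4 in RefSeq, changed by 1.55 (FDR 0.023), 4921524J17Rik by 1.52 (FDR 0.00091), and a peak named after Cinp that lies in Zfp839 by 1.04 (FDR 0.04). Cdv3, whose 3' UTR peak has an enrichment of 6.73, changed by 0.55 (FDR 0.012), and Cdv3-ps may share reads with it. The smallest FDR of the set, 6.3e-16, belongs to an unnamed mitochondrial peak at chrM:12310-13565 over ND5 and ND6, at 0.52. It is 1 of 8 mitochondrial peaks of the set, whose log2 fold changes ran from -0.18 to 1.08, and the other 7 did not pass.

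The iNKT peaks of the same genes showed more calls. In iNKT cells 19.8% of all 12542 peaks were lower and 5.84% higher at the authors' FDR of 0.05. Of the 5731 iNKT peaks named after genes of the set, 1235 (21.5%) were lower and 310 (5.41%) higher, near those shares. In the 1074 genes whose iNKT rows all lie at other bases, 99 of 1559 iNKT peaks (6.35%) were lower, and the median -log10 p of these peaks was 9.54, against 18.2 for all iNKT peaks. In Rag1, the authors' deposited tables give the iNKT peak a log2 fold change of -3.87 (FDR 3.2e-17), the overlapping DP peak 0.15 (FDR 3.7e-05), and the strongest DP peak of the set 0.02 (FDR 0.65). In Bcl11b, the 5 iNKT peaks ran from -6.02 to -1.69, and 4 of them passed, whereas none of the gene's 3 peaks in the set did. The overlapping DP peaks of Bcl11b passed in opposite directions, at 0.28 (FDR 0.00018) and -0.30 (FDR 0.032). For Il2rg the iNKT peak, in the 5' UTR, changed by -1.83 (FDR 0.0044).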

How the data were processed

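STAR 2.6.0a, HOMER 4.9.1, RSEM 1.3.0, Trim Galore 0.6.5 and FastQC 0.11.5, with the build mm10, are named per the submitters' processing notes. The deposited tables are titled as exomePeak output, and how replicates entered the calls is not stated. Per the file headers, a row of the deposited tables holds spliced blocks, a p-value of the peak, a fold enrichment over input (a linear ratio), a log2 fold change between genotypes, and log10 p and FDR values, read as scores. Depth is unknown. Repeated rows (5 of 13455 DP, 24 of 12566 iNKT) were removed, blocks were compared on the same strand (checked on simulated intervals), and coordinates are printed 1-based. The authors' differential FDR of 0.05 made the calls. No test was added, since no value per sample was used. Genes named are the smallest FDRs and peak p, largest changes, highest enrichments, most peaks, and list genes; some that the rule names are not reported here. Members and lists were chosen with earlier results of these data known. Gene places and sequences come from RefSeq (GRCm38.p6). The alternatives tried are other overlap rules, filters on peaks and FDRs, and gene matching. Python 3.11.15, numpy 2.4.6, pandas 2.3.3 and matplotlib 3.10.9 were used.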

Additional observations from a re-analysis of the deposited data

How the results depend on the processing

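No paired analysis was possible because the tables hold no values per replicate; for the same reason no replicate could be left out, and depth sets no interval. The 8552 peaks ranged from 5896 to 10702 under the 6 settings within 1.5 times, and were 4448 with a fold enrichment of at least 4. Under that filter the genes with no iNKT row were 1413 in place of 2205, and the percent with a negative log2 fold change was 49.98. Of the 4448 peaks, 9 were lower and 4 higher in Mettl3-deleted cells, in place of 63 and 9 of 8552. The lower iNKT peaks of the genes of these peaks were 590 of 3299, in place of 1235 of 5731. When 50% of a DP peak's bases had to be covered, 96 of 10702 peaks were lower and 34 higher, and 52.2% of values were negative. At a differential FDR of 0.01, 24 of the 8552 were lower and 3 higher. With a change of at least 2-fold, 9 of the 8552 were lower and 5 higher. Within the RefSeq gene of the name, the shares were 9.33% for 5' UTR, 52.7% for exon and 37.9% for 3' UTR. The iNKT filter, strand, introns, a margin of 150 bases and Ensembl matching kept every count within 1.5 times. The filters test fewer peaks by construction, and other causes were not tested. The RefSeq matching, the percent of negative values, the lower iNKT peaks, and the DP filters on calls were chosen after seeing the data.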

Other observations

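Genes were grouped by the letters their symbols start with, after the values had been seen, for the 38 starts with at least 15 genes that have a DP peak. Against 33.3% of all genes with a DP peak, no iNKT row was found for 12 of 19 Rpl genes of the large ribosomal subunit (63.2%) and 8 of 16 Mrpl genes of the mitochondrial ribosome. The start Rps, which takes in small-subunit genes and also the Rps6k kinases, had 4 of 18 (22.2%), and Mrps 5 of 15 (33.3%). The Cep genes, which encode centrosomal proteins, had none for 14 of 29 (48.3%), and the Ccdc genes of coiled-coil proteins for 25 of 54 (46.3%). At the other end stood the Ankrd genes of ankyrin repeat proteins, with 1 of 21 (4.76%), the Il genes of interleukins and their receptors, with 2 of 21 (9.52%), and the Zbtb factors, with 4 of 27 (14.8%).

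By chromosome, the share of DP peaks with no iNKT peak ran from 55.4% on chromosome 15 to 74.9% on chromosome X and 73.3% on chromosome 13, and all 6 DP peaks on chromosome Y had none. Of 163 genes named after a microRNA or a small nucleolar RNA that have a DP peak, 69 have no iNKT row. Several of these peaks lie in the host messenger RNA: the peak named after Snord57 lies in Nop56, and those named after Snord58b lie in Hnrnpc and Rpl17. Peaks called on both strands at the same place made up 439 of the 8552. Whether the libraries keep strand is not stated.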
